A study of Homo sapiens with 4 samples.

Results

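The circular RNAs (circRNAs) of 7 genes, TBCD, OMA1, RBM33, EIF4G3, UBA2, TMCO3 and UBAP2, are described here circle by circle. These hosts were chosen because, in the same libraries, some of their circles had higher and others lower values after depletion of the ribonuclease DIS3. The choice used the deposited circle signal of DIS3 KD against control cells, so that contrast is given for their circles as a description. Counts of calls from a fit across all circles are printed with their share over the whole table and support nothing about the hosts. Every row of the deposited tables with one of the 7 host symbols was taken, which gave 231 of 45182 listed circles and 7 of 8230 host symbols.

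The cells were Flp-In T-REx 293, a human embryonic kidney line with a built-in recombination site for inducible transgenes. DIS3 KD cells were 1 clone, clone 8, that carried an integrated inducible Flag-HA DIS3 transgene and had their endogenous DIS3 gene disrupted with CRISPR/Cas9. The depositors speak of a knock down because some DIS3 is still made without induction. Control cells carried the same integrated Flag-HA DIS3. The columns of both groups are marked as without doxycycline, and both were kept in medium with blasticidin and hygromycin B. Each group had 2 libraries, called biological replicates in the labels. Ribosomal RNA was removed from total RNA and a directional kit kept the strand. With 1 edited clone, effects of that clone and of DIS3 loss cannot be told apart. The labels do not say whether the libraries of a group came from separate cultures.

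A circRNA forms when the splicing machinery joins a downstream splice donor to an upstream splice acceptor (backsplicing), which closes the exons between them into a loop. One gene can give many circles through different pairs of donor and acceptor, and circles that share a donor or an acceptor are often called isoforms. A circle has no free end and so resists exonucleases, and endonuclease cleavage is 1 route by which it can be opened. DIS3 is a catalytic subunit of the RNA exosome with both an exonuclease and an endonuclease activity.

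The deposited signal, FPBcirc, counts backsplice reads per gigabase of mapped sequence (FPB below). Depth was unequal: the DIS3 KD libraries held 352471 and 121507 backsplice reads (165 and 47.9 gigabases), against 48895 and 55193 reads (19.6 and 20.4 gigabases) in the control libraries. A single read was worth 0.00604 and 0.0209 FPB in the DIS3 KD libraries and 0.0511 and 0.0489 FPB in the control libraries. A circle at 0 in both control libraries was therefore compared with a floor of 3 reads over both, which is 0.0750 FPB. Intervals and floors cover counting error only, since the reads carry no molecular identifiers. DIS3 itself had 2 listed circles, with 3 and 2 reads for the longer and 4 and 0 for the shorter in the DIS3 KD libraries and 0 in both control libraries, so the extent of DIS3 loss could not be checked on these values.

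Of the 231 circles, 47 passed the filter of a mean of 0.174 FPB (the value of 5 reads) and 184 did not. Both DIS3 KD values lay above both control values for 18 of the 47 (called wholly higher below) and below both for 16 (wholly lower). The groups overlapped for 13. Over all 2427 circles that passed the filter, 16.2% were wholly higher and 38.4% wholly lower. The median log2 fold change (DIS3 KD over control) was 0.53 over the 47 circles and -0.33 over all 2427, and 57.4% of the 47 and 40.4% of all had a positive one. With limma's test over all 2427 circles and Benjamini-Hochberg adjustment, the share past the threshold of 0.05 was 0.0824% higher and 0.453% lower. Of the 47, 1 circle was past it on the higher side, TBCD chr17:82903405-82911789, and 0 on the lower side. At an unadjusted p under 0.05 limma had 10 of the 47 circles higher and 6 lower, where 5.11% and 14% of all 2427 were so. edgeR on the recovered reads called 0 of the 47 in either direction after adjustment, where 0.0412% of all were called higher and 0% lower, with 17 higher and 2 lower unadjusted, where 11.9% and 6.43% of all were so. DESeq2 called 16 higher and 1 lower, where 8.44% and 3.17% of the 2050 circles with an adjusted p were called, with 18 and 2 unadjusted, where 12.9% and 7.09% of all were so. Nothing is read from these counts about the 7 hosts, since the hosts were picked on this contrast. When each library was centred on its own median, which moved the median of all circles to 0.17, the 18 circles remained wholly higher, 8 of the 16 remained wholly lower, and the groups overlapped for the other 8. Of the 13 overlapping circles 5 became wholly higher and 8 still overlapped. The 5 include RBM33 chr7:155672867-155680908 and TBCD chr17:82900651-82911789. That TBCD circle was read in DIS3 KD replicate 1 alone, so only the centring set its replicate 2 apart from the control libraries.

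**Figure D1:**
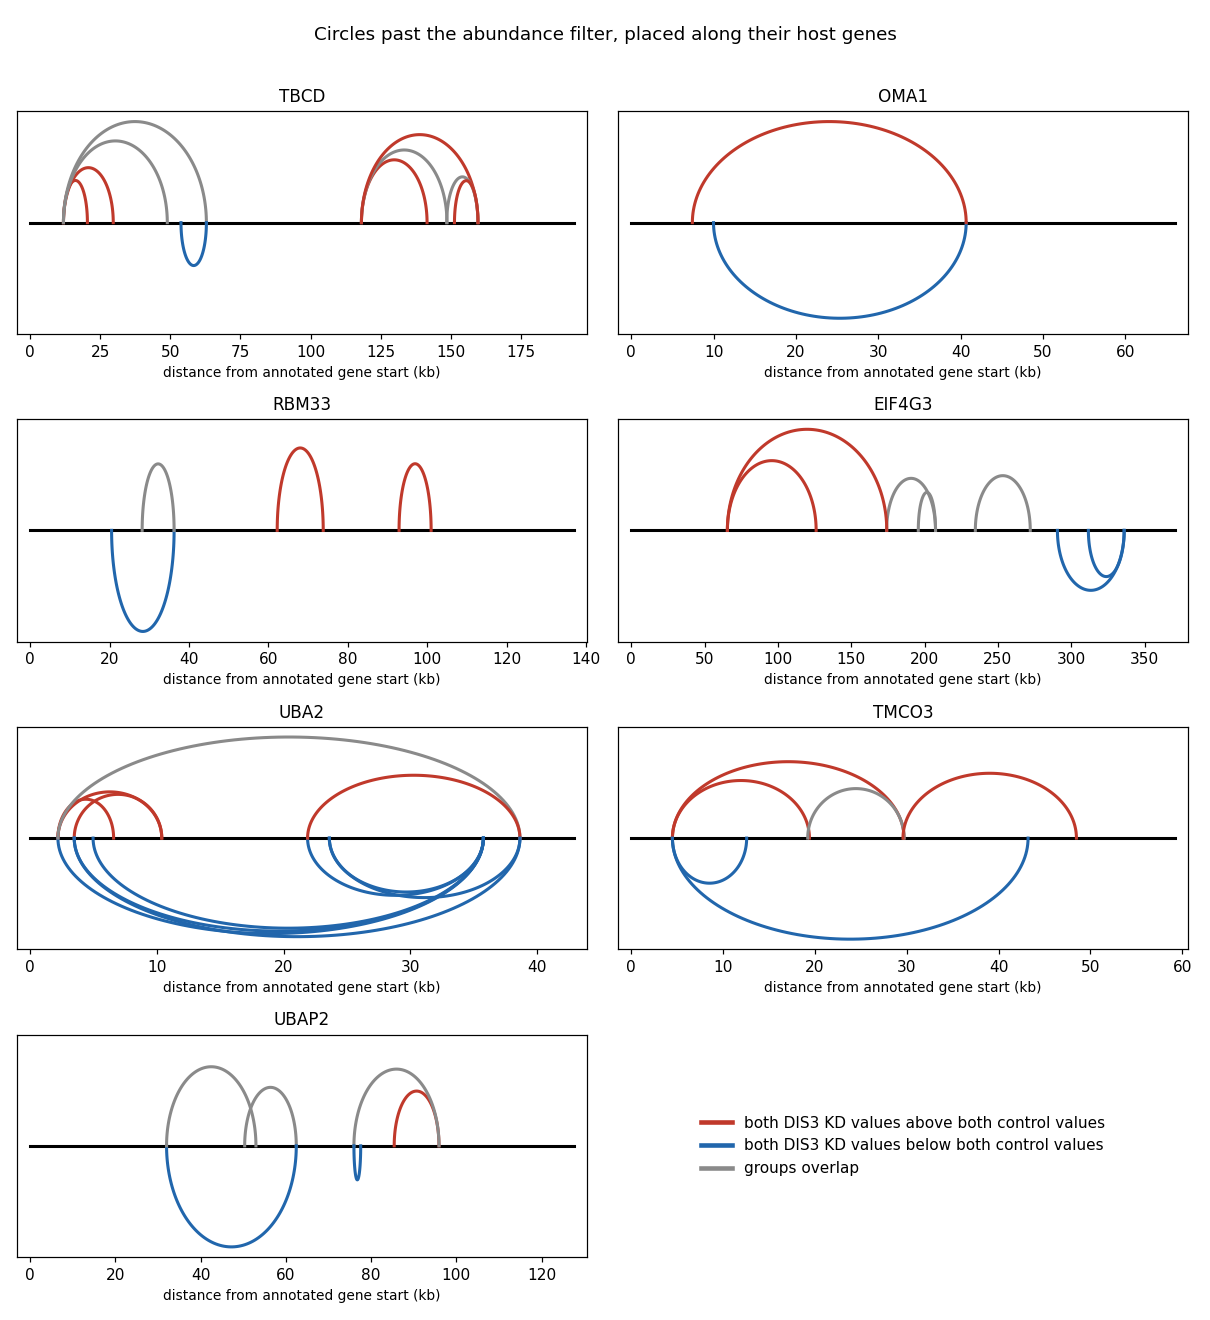
Each panel shows 1 host gene as a black line, with distance from its annotated start in kb along the transcript on the x axis, and each of the 47 circles past the abundance filter as an arc from acceptor to donor. Wholly higher circles (red, 18) and overlapping ones (grey, 13) are drawn above the gene and wholly lower ones (blue, 16) below it, and arc height grows with span within a gene.

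TBCD (chr17:82752065-82945914, plus strand, hg38) encodes tubulin folding cofactor D, which captures beta-tubulin during assembly of the tubulin heterodimer. It had 38 listed circles, 10 of them past the filter, in 2 stretches of the gene. In both stretches circles were wholly higher in DIS3 KD cells. The only wholly lower circle past the filter lay inside the first stretch. Summed over all listed circles, TBCD reached 17.7 and 13.4 FPB in DIS3 KD cells, against 4.86 and 4.75 FPB in control cells.

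Of the 10 circles, 4 began at the acceptor chr17:82763965, 11.9 kb into the gene. The shortest, chr17:82763965-82772507, had 1.33 and 1.77 FPB in DIS3 KD libraries, against 1.07 and 0.978 FPB in control libraries, a log2 fold change of 0.57 (SE 0.35). The next, chr17:82763965-82781721, had 4.27 and 5.89 FPB in DIS3 KD libraries, against 1.94 and 1.03 FPB in control libraries, a log2 fold change of 1.80 (SE 0.39). Both short circles were thus wholly higher, and the longer one carried 706 and 282 reads in DIS3 KD libraries, against 38 and 21 in control libraries. The pair that ran farther from the same acceptor overlapped between groups. Circle chr17:82763965-82800996 had 0.242 and 0.230 FPB in DIS3 KD libraries, against 0.205 and 0.489 FPB in control libraries. Circle chr17:82763965-82814934 had 0.864 and 1.04 FPB in DIS3 KD libraries, against 0.614 and 1.03 FPB in control libraries. The wholly lower circle used the last of these donors with another acceptor. It was chr17:82805875-82814934, with 0.236 and 0.104 FPB in DIS3 KD libraries, against 0.358 and 0.440 FPB in control libraries, a log2 fold change of -1.15 (SE 0.68). Its groups overlapped once libraries were centred on their medians, and it rested on 39 and 5 reads in DIS3 KD libraries, against 7 and 9 in control libraries.

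The second stretch of TBCD ends at the donor chr17:82911789, used by 5 listed circles. The circle with the largest log2 fold change of all 47 lies here. Circle chr17:82903405-82911789 had 1.51 and 2.07 FPB in DIS3 KD libraries, against 0 and 0 FPB in control libraries, at least 23.8-fold higher than the floor. At the DIS3 KD mean the control libraries would have held 71.5 reads. Its fitted log2 fold change of 5.69 (SE 0.69) depends on the pseudocount and is no bound. Circle chr17:82870224-82911789 had 0.737 and 0.689 FPB in DIS3 KD libraries, against 0.307 and 0.0489 FPB in control libraries, a log2 fold change of 2.14 (SE 0.77). Its acceptor also made chr17:82870224-82893632, with 0.332 and 0.355 FPB in DIS3 KD libraries, against 0.205 and 0 FPB in control libraries. Both were wholly higher. A last circle from that acceptor, chr17:82870224-82900731, had 0.290 and 0.167 FPB in DIS3 KD libraries, against 0 and 0.245 FPB in control libraries, so the groups overlapped.

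TBCD also held a circle present in 1 library alone. Circle chr17:82900651-82911789 had 6.03 and 0 FPB in DIS3 KD libraries (998 and 0 reads), against 0 and 0 FPB in control libraries. At the level of DIS3 KD replicate 1, replicate 2 would have held 289 reads. Of 460 circles in the whole table with at least 100 reads in DIS3 KD replicate 1, 6 had 0 reads in replicate 2. A second TBCD circle to the same donor, chr17:82905936-82911789, had 64 and 0 reads in DIS3 KD libraries and 0 in both control libraries, where 18.5 reads were expected in DIS3 KD replicate 2. Without the first of them the TBCD sum in DIS3 KD replicate 1 was 11.7 FPB. The donor's share of TBCD reads, 49.6% and 20.6% in DIS3 KD libraries against 6.32% and 1.03% in control libraries, includes both. Without the 3 circles of this donor that were read in DIS3 KD replicate 1 alone, that replicate's share was 20.1%. The first acceptor, chr17:82763965, gave 40.7% and 68.7% of TBCD reads in DIS3 KD libraries, against 78.9% and 79.4% in control libraries. Without the same 3 circles its share in DIS3 KD replicate 1 was 64.5%.

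OMA1 (chr1:58480719-58546726, minus strand) encodes a zinc metalloprotease of the mitochondrial inner membrane that cleaves the fusion protein OPA1 under stress. With 6 listed circles it was the simplest of the 7 hosts, and the change between its isoforms was an almost even split in DIS3 KD cells against a near-single circle in control cells. Both circles past the filter end at the donor chr1:58506060, 40.7 kb into the gene, and differ in the acceptor. On the minus strand the acceptor is the higher coordinate.

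The shorter circle, chr1:58506060-58536741, had 0.768 and 1.13 FPB in DIS3 KD libraries, against 4.04 and 3.82 FPB in control libraries, a log2 fold change of -2.04 (SE 0.34). The longer circle, chr1:58506060-58539310, had 0.816 and 1.04 FPB in DIS3 KD libraries, against 0 and 0 FPB in control libraries, at least 12.4-fold higher than the floor. At the DIS3 KD mean 37.2 control reads would have been counted. Its acceptor lies 7.42 kb from the gene start and that of the shorter circle 9.98 kb from it. As a share of all OMA1 backsplice reads, the longer circle took 48.2% (95% Wilson interval 42.4 to 54.1) and 46.3% (37.2 to 55.7) in DIS3 KD libraries. In control libraries it took 0 of 83 and 0 of 80 reads, with Wilson upper limits of 4.42% and 4.58%. Counting 3 reads in each control library as what a 0 allows gives shares of up to 3.61% and 3.75%. The shorter circle took 45.4% and 50.0% in DIS3 KD libraries, against 95.2% and 97.5% in control libraries. All OMA1 circles together summed to 1.69 and 2.25 FPB in DIS3 KD cells, against 4.24 and 3.91 FPB in control cells, so the total was lower as well.

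RBM33 (chr7:155644661-155781480, plus strand) encodes an RNA-binding protein. Its 21 listed circles summed to 6.33 and 8.37 FPB in DIS3 KD cells, against 6.19 and 5.38 FPB in control cells. One early circle dominated every library, 2 circles farther into the gene were almost confined to DIS3 KD libraries, and 1 early circle was wholly lower.

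The dominant circle, chr7:155672867-155680908, had 3.71 and 5.51 FPB in DIS3 KD libraries, against 4.91 and 4.11 FPB in control libraries, with a log2 fold change of 0.01 (SE 0.31). A longer circle to the same donor, chr7:155665175-155680908, had 0.218 and 0.459 FPB in DIS3 KD libraries, against 0.818 and 1.03 FPB in control libraries, a log2 fold change of -1.43 (SE 0.50). The 2 circles thus share a donor but not a direction: the groups overlapped for the first, and the other was wholly lower. Farther in, chr7:155706860-155718443 had 1.11 and 1.36 FPB in DIS3 KD libraries, against 0 and 0.0489 FPB in control libraries. Those values are 183 and 65 reads in DIS3 KD libraries, against 0 and 1 in control libraries, a pooled ratio of 46.5 with an exact counting interval of 8.27 to 1843. Circle chr7:155737530-155745602 had 0.477 and 0.522 FPB in DIS3 KD libraries, against 0 and 0 FPB in control libraries, at least 6.66-fold higher than the floor, where 20.0 control reads were expected at the DIS3 KD mean. The donor chr7:155718443 gave 18.5% and 16.2% of RBM33 reads in DIS3 KD libraries, against 0% and 0.909% in control libraries. The early donor chr7:155680908 gave 63.4% and 72.3% in DIS3 KD libraries, against 92.6% and 95.5% in control libraries.

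EIF4G3 (chr1:20806292-21176897, minus strand) encodes a scaffold protein of the cap-binding translation initiation complex. It had the most listed circles of the 7 hosts, 71, of which 7 passed the filter. Its circles separated along the gene: those from 1 acceptor near the 5′ end were higher in DIS3 KD cells, and those near the 3′ end were lower. Its summed signal overlapped between groups, at 5.08 and 6.87 FPB in DIS3 KD cells against 3.89 and 6.41 FPB in control cells.

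The acceptor with the higher circles is shown because it is also an annotated transcript start. All 6 listed EIF4G3 circles that end at chr1:21111383 have as their first base the start of a RefSeq transcript (GRCh38.p14). The 50 bases before that start, chr1:21111384-21111433 on the minus strand, are given 5′ to 3′ with the last AG, the dinucleotide that precedes most splice acceptors, in capitals.
EIF4G3 acceptor: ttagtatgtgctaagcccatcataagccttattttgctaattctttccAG
Over the whole table, 151 of 36725 circles with a host strand (0.411%) had an acceptor at an annotated transcript start of their host, and the 6 EIF4G3 circles were the only ones among the 7 hosts. These circles used 66 distinct starts, of which 65 (98.5%) had AG directly before them, against 1677 of 35116 start windows (4.78%) in the RefSeq table, read on the transcript strand. Since AG precedes most splice acceptors, the high share follows from their use as acceptors and is no separate result.

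The 6 circles held 225 and 80 reads in DIS3 KD libraries, against 1 and 7 in control libraries, where 60.6 were expected at the DIS3 KD mean. Their share of EIF4G3 reads was 26.8% and 24.3% in DIS3 KD libraries, against 1.32% and 5.34% in control libraries. Circle chr1:21002713-21111383 had 0.338 and 0.626 FPB in DIS3 KD libraries, against 0 and 0 FPB in control libraries, at least 6.43-fold higher than the floor. It spans the longest stretch of the 47 circles and would have had 19.3 control reads at the DIS3 KD mean. Circle chr1:21050866-21111383 had 0.749 and 0.584 FPB in DIS3 KD libraries, against 0 and 0.342 FPB in control libraries, a log2 fold change of 2.60 (SE 1.11). The other 4 circles from this acceptor were below the filter, each with at most 1 control read. The largest of them, chr1:21089138-21111383, had 22 and 7 reads in DIS3 KD libraries and 0 in both control libraries.

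In the middle of EIF4G3 the groups overlapped for all 3 circles past the filter. Circle chr1:20969474-20981227 had 0.840 and 1.04 FPB in DIS3 KD libraries, against 1.02 and 0.391 FPB in control libraries. Circle chr1:20969474-21002808, from the same donor, had 0.465 and 0.480 FPB in DIS3 KD libraries, against 0.153 and 0.734 FPB in control libraries. Circle chr1:20904883-20942330 had 0.127 and 0.292 FPB in DIS3 KD libraries, against 0.205 and 0.881 FPB in control libraries. The control libraries themselves stood apart at these circles, which limits what can be seen. Near the 3′ end, chr1:20840856-20865262 had 0.121 and 0.230 FPB in DIS3 KD libraries, against 0.358 and 1.13 FPB in control libraries, a log2 fold change of -1.73 (SE 0.71). Circle chr1:20840856-20886371 had 0.0967 and 0.146 FPB in DIS3 KD libraries, against 0.153 and 0.440 FPB in control libraries, and overlapped between groups once libraries were centred. Over its 6 listed circles the acceptor chr1:20865262 took 3.57% and 4.26% of EIF4G3 reads in DIS3 KD libraries, against 15.8% and 24.4% in control libraries.

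**Figure D2:**
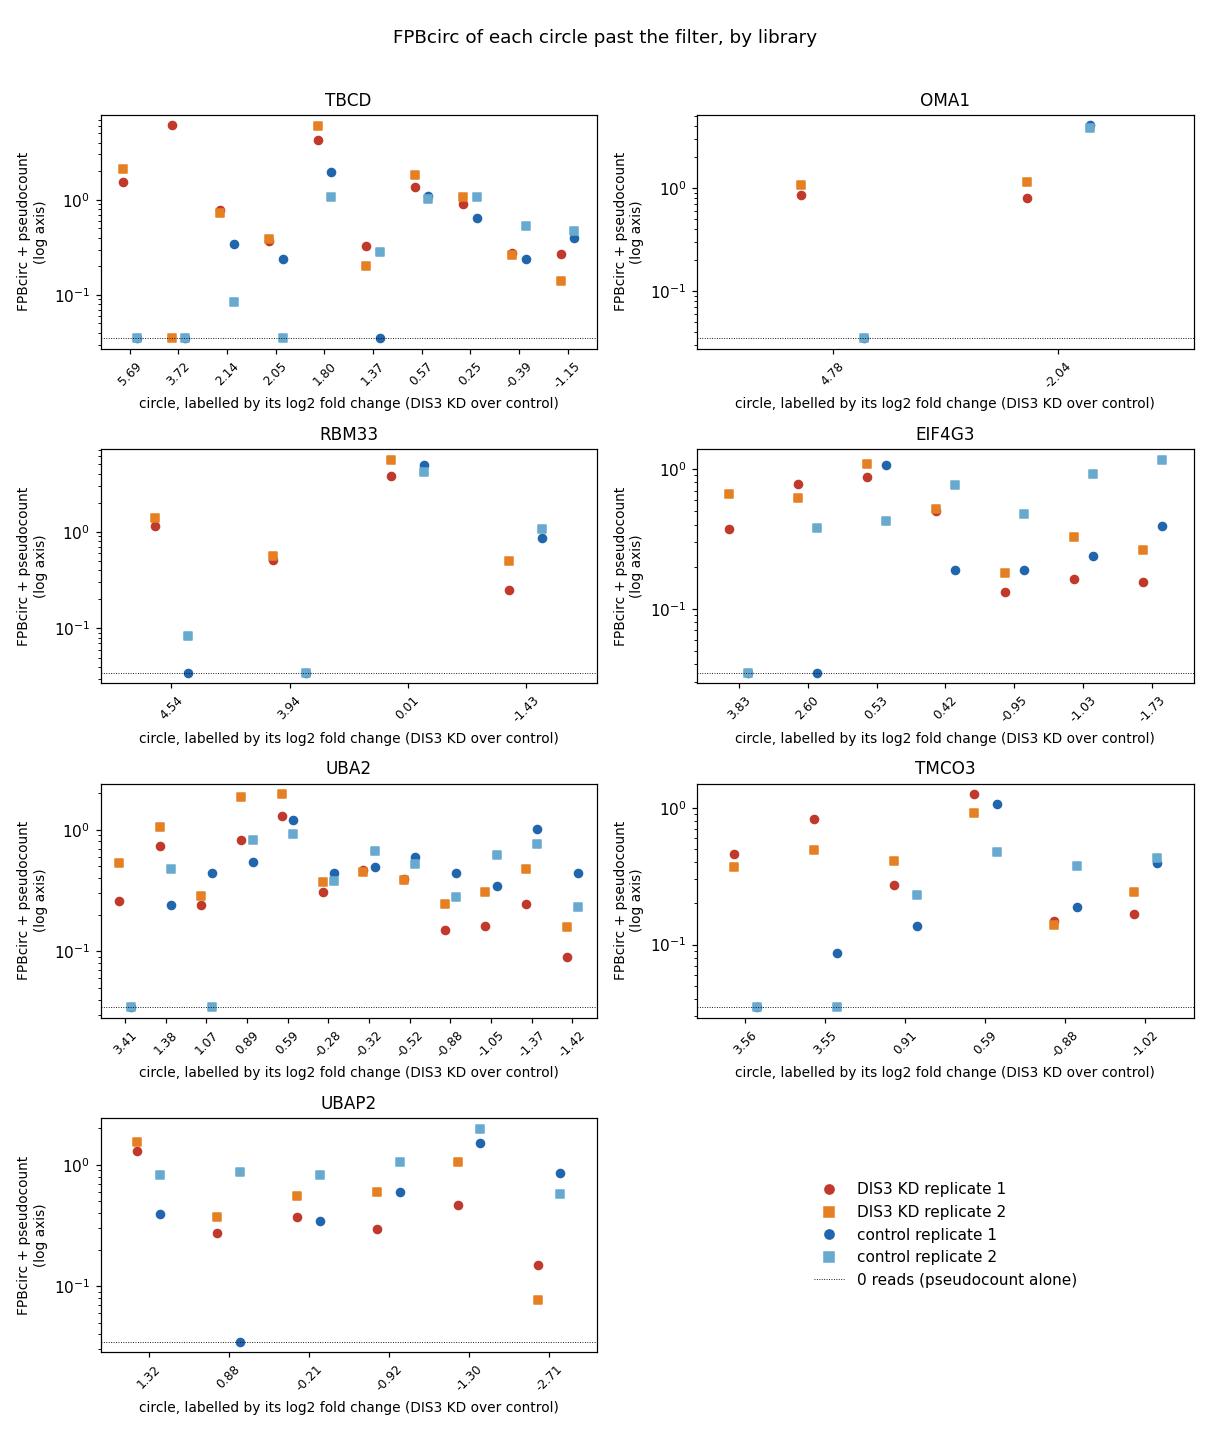
FPBcirc plus the pseudocount of 0.0349 FPB on a log axis for each of the 47 circles past the filter, 1 panel per host, with circles ordered by log2 fold change, DIS3 KD replicates (red, orange) left of control replicates (blue). Points on the dotted line are libraries with 0 reads, and in every host the order runs from circles with both DIS3 KD points on top to circles with both at the bottom.

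UBA2 (chr19:34428381-34471251, plus strand) encodes the catalytic subunit of the SUMO-activating enzyme, which works as a heterodimer with SAE1. It had 39 listed circles and the most past the filter, 12. Circles that closed at an early donor were higher in DIS3 KD cells, and the 5 that closed at the donor chr19:34464131 were all wholly lower, 3 of them only as long as libraries were not centred. The summed signal overlapped between groups, at 6.01 and 9.18 FPB in DIS3 KD cells against 6.85 and 6.46 FPB in control cells.

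From the acceptor chr19:34430576, circle chr19:34430576-34434968 had 0.792 and 1.82 FPB in DIS3 KD libraries, against 0.511 and 0.783 FPB in control libraries. Circle chr19:34430576-34438766 had 1.26 and 1.92 FPB in DIS3 KD libraries, against 1.18 and 0.881 FPB in control libraries. The acceptor chr19:34431861 with the same donor gave chr19:34431861-34438766, which had 0.695 and 1.02 FPB in DIS3 KD libraries, against 0.205 and 0.440 FPB in control libraries. These 3 short circles were wholly higher, with log2 fold changes of 0.89 (SE 0.50), 0.59 (SE 0.39) and 1.38 (SE 0.53). The donor chr19:34438766 gave 33.4% of UBA2 reads in each DIS3 KD library, against 20.1% and 20.5% in control libraries.

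The same 2 acceptors also joined the late donors, and with the nearer of these, chr19:34464131, the values ran the other way. Circle chr19:34430576-34464131 had 0.115 and 0.209 FPB in DIS3 KD libraries, against 0.409 and 0.245 FPB in control libraries. Circle chr19:34431861-34464131 had 0.127 and 0.271 FPB in DIS3 KD libraries, against 0.307 and 0.587 FPB in control libraries. Both were wholly lower and both overlapped once libraries were centred. Circle chr19:34433348-34464131 had 0.0544 and 0.125 FPB in DIS3 KD libraries, against 0.409 and 0.196 FPB in control libraries, a log2 fold change of -1.42 (SE 1.01). With the last donor, chr19:34430576-34467014 had 0.205 and 0.250 FPB in DIS3 KD libraries, against 0.409 and 0 FPB in control libraries, so the groups overlapped. Circle chr19:34431861-34467014 had 0.357 and 0.355 FPB in DIS3 KD libraries, against 0.563 and 0.489 FPB in control libraries, wholly lower here but with the opposite sign under edgeR and DESeq2 scaling (log2 fold changes of 0.13 and 0.12).

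In the second part of UBA2, 2 acceptors met 2 donors in all 4 combinations. Circle chr19:34450265-34464131 had 0.212 and 0.438 FPB in DIS3 KD libraries, against 0.972 and 0.734 FPB in control libraries, a log2 fold change of -1.37 (SE 0.51). Circle chr19:34450265-34467014, from the same acceptor, had 0.224 and 0.501 FPB in DIS3 KD libraries, against 0 and 0 FPB in control libraries, at least 4.83-fold higher than the floor. These are 61 reads in DIS3 KD libraries, and 14.5 control reads were expected at the DIS3 KD mean. One acceptor thus gave a wholly lower circle to the nearer donor and a wholly higher one to the donor beyond it. The neighbouring acceptor did not show that split. Circle chr19:34451981-34464131 had 0.435 and 0.417 FPB in DIS3 KD libraries, against 0.460 and 0.636 FPB in control libraries. Circle chr19:34451981-34467014 had 0.272 and 0.334 FPB in DIS3 KD libraries, against 0.409 and 0.342 FPB in control libraries. Both had small negative log2 fold changes, -0.32 (SE 0.47) and -0.28 (SE 0.55), which turned positive under edgeR, DESeq2 and median-centred scaling. Over its 10 listed circles the donor chr19:34464131 took 18.0% and 17.5% of UBA2 reads in DIS3 KD libraries, against 45.5% and 50.0% in control libraries.

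TMCO3 (chr13:113491021-113550229, plus strand, listed by RefSeq under the symbol SLC9D1) encodes a membrane protein of the predicted monovalent cation/proton antiporter family. It had 12 listed circles, 6 past the filter, and the fewest control reads of the 7 hosts, 43 and 34, against 578 and 132 in DIS3 KD libraries. From 1 acceptor, chr13:113495502, 4 donors gave 2 wholly higher and 2 wholly lower circles past the filter. Among these 4 the direction did not follow distance: nearest and farthest donor were lower, the farthest only without centring, and the 2 between them higher. The acceptor had 6 listed circles. Those below the filter used a nearer donor, chr13:113501880, with 2 and 4 reads in DIS3 KD libraries and 0 in both control libraries, and a farther one, chr13:113539507. The summed signal was 3.49 and 2.75 FPB in DIS3 KD cells, against 2.20 and 1.66 FPB in control cells.

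Circle chr13:113495502-113503588 had 0.133 and 0.209 FPB in DIS3 KD libraries, against 0.358 and 0.391 FPB in control libraries, a log2 fold change of -1.02 (SE 0.65). Circle chr13:113495502-113510424 had 0.236 and 0.376 FPB in DIS3 KD libraries, against 0.102 and 0.196 FPB in control libraries, a log2 fold change of 0.91 (SE 0.74). Circle chr13:113495502-113520733 had 0.423 and 0.334 FPB in DIS3 KD libraries, against 0 and 0 FPB in control libraries, at least 5.05-fold higher than the floor. Its 86 reads in DIS3 KD libraries compare with 15.1 expected control reads at the DIS3 KD mean. Circle chr13:113495502-113534240 had 0.115 and 0.104 FPB in DIS3 KD libraries, against 0.153 and 0.342 FPB in control libraries, and overlapped once libraries were centred. Of the remaining circles, chr13:113510238-113520733 had 1.22 and 0.877 FPB in DIS3 KD libraries, against 1.02 and 0.440 FPB in control libraries, so the groups overlapped. It was the most abundant TMCO3 circle in every library. Circle chr13:113520616-113539507 had 0.798 and 0.459 FPB in DIS3 KD libraries, against 0.0511 and 0 FPB in control libraries, which is 154 reads against 1 and a pooled ratio of 28.9 (exact counting interval 5.10 to 1147). Its donor chr13:113539507 gave 34.1% and 24.2% of TMCO3 reads in DIS3 KD libraries, against 9.30% and 17.6% in control libraries. The Wilson interval of the second control library, 8.35 to 33.5, spans the value of DIS3 KD replicate 2.

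UBAP2 (chr9:33921693-34049199, minus strand) encodes a ubiquitin-associated domain protein, the paralogue of UBAP2L. It had 44 listed circles and 6 past the filter. Wholly lower were 1 of the 2 circles from the acceptor nearest the 5′ end and a short circle in the middle of the gene, and 1 circle toward the 3′ end was wholly higher. The summed signal overlapped between groups, at 4.29 and 6.16 FPB in DIS3 KD cells against 4.19 and 6.51 FPB in control cells.

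Circle chr9:33986760-34017189 had 0.435 and 1.02 FPB in DIS3 KD libraries, against 1.48 and 1.96 FPB in control libraries, a log2 fold change of -1.30 (SE 0.48). From the same acceptor, chr9:33996223-34017189 had 0.260 and 0.564 FPB in DIS3 KD libraries, against 0.563 and 1.03 FPB in control libraries, with groups that overlapped narrowly. The acceptor chr9:34017189 gave 18.7% and 29.8% of UBAP2 reads in DIS3 KD libraries, against 50.0% and 47.4% in control libraries. The steepest negative value of the 47 circles belongs to a short circle, chr9:33971651-33973237, with 0.115 and 0.0417 FPB in DIS3 KD libraries, against 0.818 and 0.538 FPB in control libraries. That is a log2 fold change of -2.71 (SE 0.71), on 19 and 2 reads in DIS3 KD libraries against 16 and 11 in control libraries. Its acceptor also made chr9:33953285-33973237, with 0.338 and 0.522 FPB in DIS3 KD libraries, against 0.307 and 0.783 FPB in control libraries. The donor of that overlapping circle, in turn, closed the wholly higher one. Circle chr9:33953285-33963791 had 1.28 and 1.50 FPB in DIS3 KD libraries, against 0.358 and 0.783 FPB in control libraries, a log2 fold change of 1.32 (SE 0.46). Circle chr9:33986760-33998864 had 0.242 and 0.334 FPB in DIS3 KD libraries, against 0 and 0.832 FPB in control libraries, and overlapped.

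**Figure D3:**
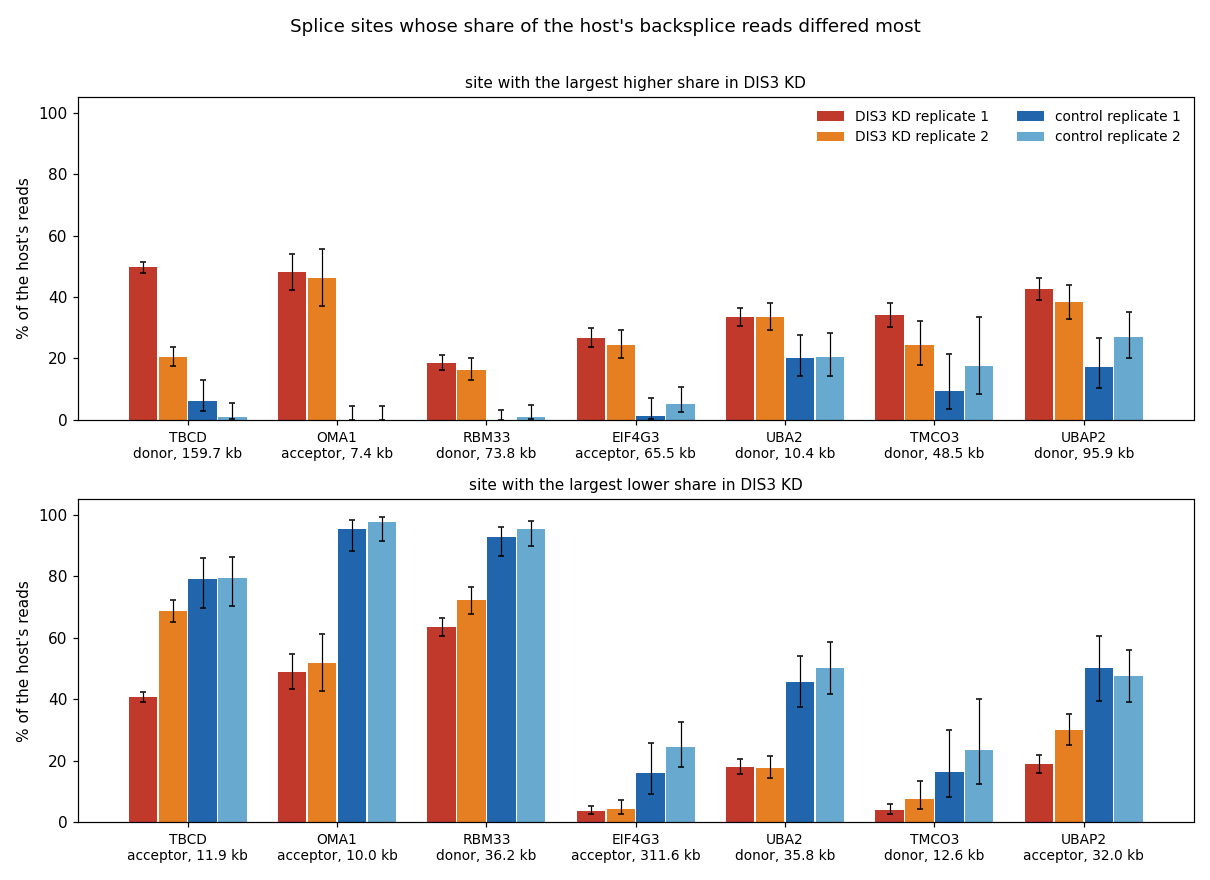
Percent of a host's backsplice reads that used 1 donor or acceptor, in the 2 DIS3 KD libraries (red, orange) and the 2 control libraries (blue), for the site with the largest higher share (upper panel) and the largest lower share (lower panel) in each host. Bars start at 0 and whiskers are 95% Wilson intervals, and site labels give the distance from the annotated gene start. For OMA1 the shares are 48.2% and 46.3% in DIS3 KD libraries against 0% and 0% in control libraries at one acceptor, and 48.9% and 51.9% against 95.2% and 97.5% at the other.

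The same site shares were computed for all hosts with at least 30 backsplice reads in each library, 297 in number, as a summary chosen after the values were seen. Their largest difference in a site's share had a median of 13.2 percentage points, and that of the 7 hosts had a median of 26.1, a difference that follows from choosing hosts with opposite circles in this contrast. OMA1 ranked 1 among the 297, TBCD 17, UBA2 22, RBM33 38, UBAP2 47, EIF4G3 60 and TMCO3 120. The TBCD value of 31.4 points rested on DIS3 KD replicate 1. Without that replicate the largest TBCD difference was 18.5 points at another donor, chr17:82814934, lower in DIS3 KD cells, with rank 101. With both replicates but without the 3 circles read in replicate 1 alone it was 17.8 points at that donor, with rank 94. A difference at or above that of TMCO3 was found in 40.4% of hosts.

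Opposite circles occurred both with and without a shared splice site. Among the 7 hosts, 57 pairs of circles past the filter shared a start or an end, and in 12 of them (21.1%) 1 circle was wholly higher and the other wholly lower. Of the 112 pairs with no shared end, 36 (32.1%) were opposite. The opposite pairs with a shared end all came from UBA2, TMCO3 and OMA1, and TBCD, RBM33, EIF4G3 and UBAP2 had none. UBA2 alone, with 4 wholly higher and 7 wholly lower circles, gave most of the opposite pairs, so the pooled percentages do not describe each host. In the other hosts 44 of 797 pairs with a shared end (5.52%) and 55 of 798 without (6.89%) were opposite. The hosts were selected for opposite circles, so the difference between the 7 and the rest follows from the choice. The wholly higher circles had a median span of 15.8 kb, the wholly lower ones 27.4 kb and all circles past the filter 8.755 kb.

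Read depth differed between the classes. The 18 wholly higher circles had 0 to 59 control reads with a median of 5, and the 16 wholly lower ones 10 to 157 with a median of 19.5. Of the 47 circles, 7 had 0 reads in both control libraries, in 6 of the 7 hosts, where 2.47% of all circles past the filter had none. The part that low control depth plays in the size of these differences was not tested. The expected control reads given above were 14.5 to 71.5 for those present in both DIS3 KD libraries. They are taken at the DIS3 KD mean of circles from hosts chosen on this contrast, and so may be too high.

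**Figure D4:**
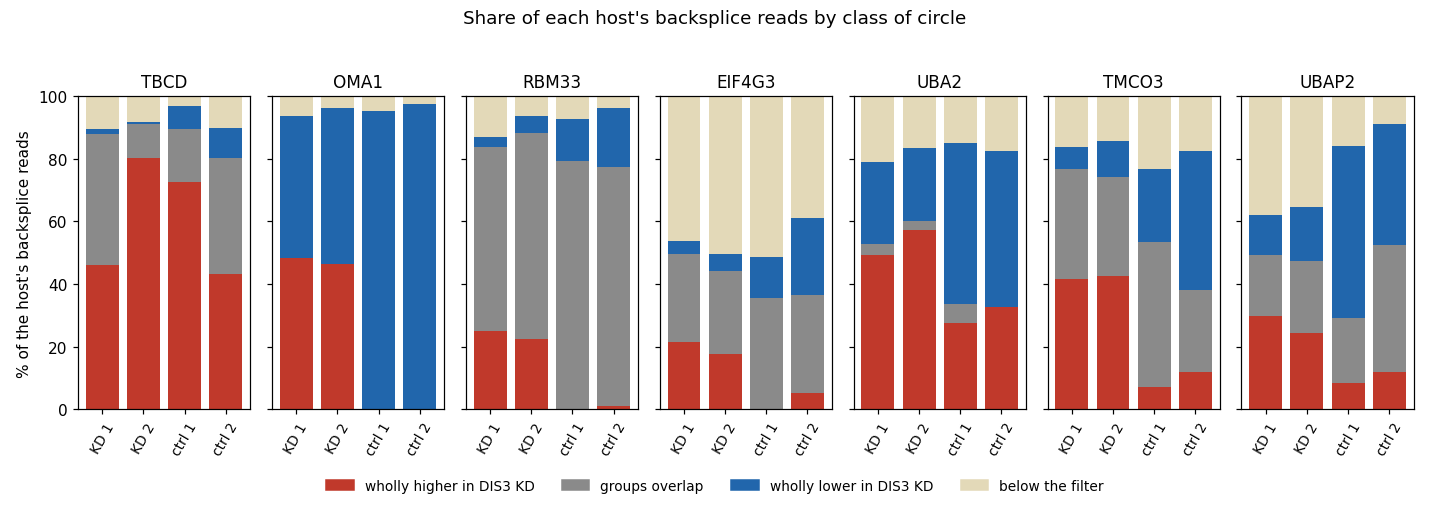
Share of each host's backsplice reads (y axis, percent) held by its wholly higher, overlapping and wholly lower circles and by those below the filter, in DIS3 KD replicates 1 and 2 and control replicates 1 and 2 from left to right. In OMA1 the wholly higher circle holds 48.2% and 46.3% in DIS3 KD libraries and 0% in control libraries, while in TBCD the wholly higher share, 46.1% and 80.4% in DIS3 KD libraries against 72.6% and 43.3% in control libraries, overlaps between groups.

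The 184 circles below the filter were mostly seen in the deep DIS3 KD libraries alone. Over all 231 listed circles, 130 had 0 control reads and 17 had 0 DIS3 KD reads, and 0 control reads were found for 69.6% of circles in the whole table. By host, 28 circles of TBCD were below the filter, 4 of OMA1, 17 of RBM33, 64 of EIF4G3, 27 of UBA2, 6 of TMCO3 and 38 of UBAP2. The most reads of any of them was 71 over all libraries, in EIF4G3. On the edge of the filter, TBCD chr17:82870224-82900731 was the last circle inside, with a mean of 0.175 FPB, and UBAP2 chr9:33960826-33989126 the first outside, with 0.167 FPB.

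Named by summed reads, the leading EIF4G3 circles below the filter were chr1:21050866-21089213, with 66 and 5 reads in DIS3 KD libraries and 0 in both control libraries and chr1:20969474-21050994. The second of these had 34 and 6 reads in DIS3 KD libraries, against 4 and 0 in control libraries. The acceptor chr1:21089213 had 5 circles below the filter with 99 and 29 reads in DIS3 KD libraries, against 0 and 0 in control libraries, where 24.1 were expected at the DIS3 KD mean. Its circles were thus read in DIS3 KD cells alone, at low counts. In UBAP2, chr9:33948374-33953474 had 55 and 8 reads in DIS3 KD libraries, against 0 and 2 in control libraries. Circle chr9:33948374-33956146 had 50 and 11 reads in DIS3 KD libraries and 0 in both control libraries. Their shared donor closed 6 circles below the filter, with 134 and 22 reads in DIS3 KD libraries against 0 and 2 in control libraries. As a class, circles below the filter held 37.9% and 35.3% of UBAP2 reads in DIS3 KD libraries, against 15.9% and 9.02% in control libraries.

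In TBCD the leading circle below the filter was chr17:82905936-82911789, given above with 64 and 0 reads in DIS3 KD libraries and 0 in both control libraries. The next, chr17:82763965-82809782, had 27 and 7 reads in DIS3 KD libraries and 0 in both control libraries. TMCO3 chr13:113510238-113539507 had 39 and 5 reads in DIS3 KD libraries, against 0 and 5 in control libraries, and chr13:113520616-113534240 had 16 and 3 against 7 and 0. These TMCO3 circles join sites already named, in other pairings. RBM33 chr7:155763812-155766655 had 27 and 9 reads in DIS3 KD libraries, against 2 and 0 in control libraries, and chr7:155706860-155745602 had 18 and 5 against 0 and 3. UBA2 chr19:34431861-34434968 had 20 and 15 reads in DIS3 KD libraries, against 2 and 0 in control libraries, and chr19:34464026-34467014 had 27 and 8 against 2 and 0. OMA1 chr1:58506060-58534331 had 5 and 2 reads in DIS3 KD libraries, against 4 and 2 in control libraries, and chr1:58527261-58536741 had 10 and 2 against 0 and 0. A control read stands for more signal than several DIS3 KD reads, so these counts cannot be set side by side without scaling.

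The linear RNA of a host gives a second readout, derived from the deposited CIRCscore, the ratio of circle signal to the linear signal of the host (FPBlinear). It is 1 value per host and library. Linear signal was wholly higher in DIS3 KD cells for 3 of the 7 hosts and wholly lower for 2, against 25.6% and 45.1% of the 2547 hosts for which all 4 libraries gave one. TBCD had a linear signal of 33.8 and 21.7 FPB in DIS3 KD libraries, against 16.4 and 17.0 FPB in control libraries. RBM33 had 8.95 and 9.65 FPB in DIS3 KD libraries, against 5.11 and 5.00 FPB in control libraries. UBAP2 had 8.54 and 9.30 FPB in DIS3 KD libraries, against 5.32 and 7.84 FPB in control libraries. Those 3 hosts were the wholly higher ones. Linear OMA1 was 2.78 and 2.12 FPB in DIS3 KD libraries, against 3.14 and 3.88 FPB in control libraries. Linear EIF4G3 was 13.4 and 15.8 FPB in DIS3 KD libraries, against 24.3 and 24.1 FPB in control libraries. These were wholly lower. Linear UBA2 was 104 and 149 FPB in DIS3 KD libraries against 154 and 143 FPB in control libraries, and the groups overlapped. So did linear TMCO3, at 8.20 and 9.49 FPB in DIS3 KD libraries against 8.64 and 10.7 FPB in control libraries. Since each host has 1 linear value per library, it divides all circles of a host alike and the order of circles within a library is the same in both readouts.

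CIRCscore, read for the 33 circles that had one in each of the 4 libraries, was wholly higher for 9 and wholly lower for 15, where 11.6% and 42.6% of 1823 such circles were so over the whole table. Circles read in every library are a selected set, and the 7 circles with 0 control reads are outside it. OMA1 chr1:58506060-58536741 had scores of 0.278 and 0.534 in DIS3 KD libraries, against 1.29 and 0.983 in control libraries, so its level per linear OMA1 was wholly lower too. RBM33 chr7:155672867-155680908, whose FPB overlapped, had scores of 0.415 and 0.571 in DIS3 KD libraries, against 0.960 and 0.822 in control libraries. UBAP2 chr9:33986760-34017189 had 0.052 and 0.111 in DIS3 KD libraries, against 0.280 and 0.251 in control libraries. The 2 EIF4G3 circles that were wholly higher in FPB had 0 reads in at least 1 control library and are outside the 33. In EIF4G3 the classes differed between FPB and score, while the order of circles within a library did not. Its wholly lower circle chr1:20840856-20865262 had scores of 0.00976 and 0.0151 in DIS3 KD libraries, against 0.0151 and 0.0472 in control libraries, and overlapped, as did chr1:20840856-20886371. Circle chr1:20969474-20981227, whose FPB overlapped, had wholly higher scores of 0.0634 and 0.0666 in DIS3 KD libraries, against 0.0424 and 0.0167 in control libraries. Circle chr1:20969474-21002808 was wholly higher by a narrow margin, with 0.0354 and 0.0310 in DIS3 KD libraries, against 0.00671 and 0.0309 in control libraries. By host the counts of wholly higher and wholly lower scores were 2 and 2 of 6 for TBCD, 0 and 1 of 1 for OMA1, 0 and 2 of 2 for RBM33, and 2 and 0 of 5 for EIF4G3. For UBA2 they were 3 and 4 of 10, for TMCO3 1 and 2 of 4, and for UBAP2 1 and 4 of 5.

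**Figure D5:**
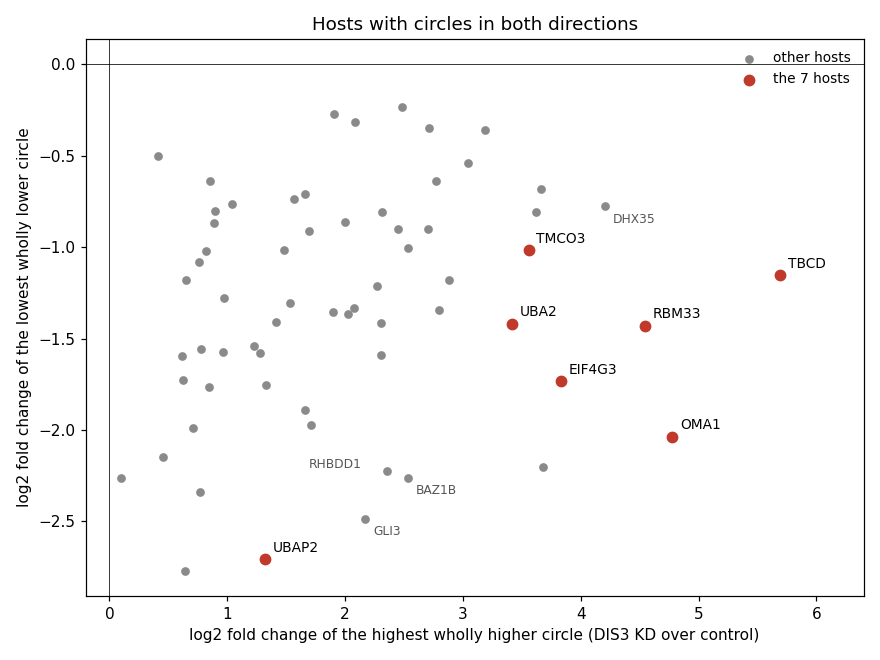
Each point is 1 of the 64 hosts with circles in both directions, placed by the log2 fold change (DIS3 KD over control) of its highest wholly higher circle (x axis) and of its lowest wholly lower circle (y axis). The 7 hosts described (red) have gaps between both values of 4.03 to 6.84, and DHX35, BAZ1B, GLI3 and RHBDD1 are named among the other hosts.

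Circles in both directions were found in 64 of the 497 hosts with at least 2 circles past the filter (12.9%). Ranked by the gap between the highest wholly higher and the lowest wholly lower log2 fold change, TBCD (6.84) was 1, OMA1 (6.82) 2, RBM33 (5.97) 3, EIF4G3 (5.57) 5, UBA2 (4.83) 7, TMCO3 (4.57) 11 and UBAP2 (4.03) 16. The median gap was 5.57 in the 7 hosts and 2.86 in the other diverging hosts, a difference the choice of hosts fixes. The gap is largest where a circle had no control reads, and fitted values there depend on the pseudocount. The TBCD gap also rests on its 1 wholly lower circle, whose groups overlapped once libraries were centred. TBCD did not diverge under centring, and neither TBCD nor TMCO3 did with the filter at 10 reads.

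Among the other hosts most like them by this measure over the 4 libraries were DHX35 (gap 4.98), BAZ1B (4.79), GLI3 (4.66) and RHBDD1 (4.58). In DHX35, chr20:38983699-38994880 had 95 and 31 reads in DIS3 KD libraries and 0 in both control libraries, and chr20:39001730-39006356 had 24 and 7 reads in DIS3 KD libraries against 5 and 6 in control libraries. In BAZ1B the opposite circles share their higher coordinate, chr7:73469517-73470483 with a log2 fold change of 2.53 and chr7:73465439-73470483 with -2.26. Those of OMA1 share the lower coordinate. In DHX35, GLI3 and RHBDD1 the opposite circles share neither.

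Genes related to the 7 hosts by function, or for some only by symbol, were read for the same pattern, in lists drawn up with earlier results of these data known. In 7 lists 43 circles passed the filter, and limma called 0 of them after adjustment, beside 0.0824% higher and 0.453% lower of all 2427. With an unadjusted p below 0.05 limma had 0 higher and 5 lower, beside 5.11% and 14% of all. Called by edgeR were 0, beside 0.0412% and 0% of all, with 1 higher and 3 lower unadjusted, beside 11.9% and 6.43%. DESeq2 called 0 higher and 1 lower, beside 8.44% and 3.17% of the 2050 circles with an adjusted p. Its unadjusted counts were 1 and 4, beside 12.9% and 7.09% of all. For the lists below, counts of wholly higher and wholly lower circles stand beside 16.2% and 38.4% of all circles past the filter.

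Of 7 tubulin folding cofactors and partners, 2 had circles past the filter, with 1 of 4 circles wholly higher, 2 wholly lower and a median log2 fold change of 0.36. Its named circles both came from TBCE, another tubulin folding cofactor, with log2 fold changes of 1.92 for chr1:235419473-235434280 and 1.84 for chr1:235419417-235434280. Of 12 mitochondrial proteases and OMA1 partners, 3 genes had 7 circles, 1 wholly higher and 3 wholly lower, with a median of -0.93. AFG3L2, a subunit of an inner membrane protease, held both extremes, chr18:12358670-12360051 with -1.97 (SE 1.34) and chr18:12356694-12371691 with 1.71 (SE 1.45). The latter had 0 reads in control replicate 2. Of 15 genes of the cap-binding initiation complex and its partners, 2 had 3 circles, 0 wholly higher and 1 wholly lower, with a median of -0.42. The named circles were EIF4A2 chr3:186786502-186787264 with -1.20 (SE 2.15) and EIF4B chr12:53027782-53028188 with -0.42 (SE 0.46), from a helicase and a helicase cofactor of translation initiation. The EIF4A2 circle had 9 and 1 reads in DIS3 KD libraries against 14 and 0 in control libraries, and its groups overlapped.

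Of 17 SUMO pathway genes, 5 had 6 circles, 0 wholly higher and 2 wholly lower, with a median of -0.37. RANBP2, a SUMO ligase of the nuclear pore, had chr2:108771701-108773046 with -2.55 (SE 0.47), and SENP6, a SUMO protease, chr6:75702645-75703072 with -1.29 (SE 0.55). Of 15 genes of RNA adenine methylation, 6 had 13 circles, 0 wholly higher and 7 wholly lower, with a median of -1.68. Named there were CBLL1, a component of the methyltransferase complex, with -3.19 (SE 1.24) for chr7:107748880-107755491, and YTHDC2, a reader protein, with -2.84 (SE 1.28) for chr5:113532879-113542503. The list around UBAP2L and stress granule proteins had 10 circles from 6 of 13 genes, 0 wholly higher and 4 wholly lower, with a median of -0.44. Its named circles were both from G3BP1, a stress granule core protein, with -1.29 (SE 0.58) for chr5:151786572-151795575 and -1.17 (SE 0.95) for chr5:151786603-151795575. The groups overlapped for the second. Of 12 cation/proton antiporters and related genes, 0 had a circle past the filter.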

How the data were processed

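Total RNA libraries from 2 DIS3 KD and 2 control samples were compared. The submitters' processing notes name hg38, Bowtie2 2.3.5 and bcl2fastq 2.20, with no role. No label or header names the program that called circles. The deposited FPBcirc is a depth-normalised signal, and the deposited CIRCscore and fold change are each a ratio, per the file headers. All nonzero signals (100%) were whole multiples of 1 read within 0.001 of a read. Linear signal was recovered from the deposited CIRCscore and FPBcirc with the offset of 0.01. There were 7 empty lines in each deposited table. Starts were converted to a first base of 1. All 7 hosts matched RefSeq, TMCO3 by a synonym. The strand of a circle is its host's, and exon content is not given.

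Circles with a mean of at least 0.174 FPB, the value of 5 reads, were fitted across the whole table (2427 circles) with limma 3.58.1 (trend and robust) on log2(FPBcirc + 0.0349), two-sided, with Benjamini-Hochberg adjustment. Fold changes are on that scale, which shrinks those of low circles read in both groups, and for circles with 0 control reads they depend on the pseudocount. P-values measure only the spread between these libraries. edgeR 4.0.16 and DESeq2 1.42.0 were run on the recovered reads, in R 4.3.3. The limma, edgeR and DESeq2 fits were also run on simulated counts, whose outcome is not given and supports nothing here. Alternatives changed the block, moderation, pseudocount, filter, scaling and libraries. The members and lists were chosen with earlier results of these data known. Every circle past the filter is named, the 2 with most reads below it in each host, the 5 most similar other hosts (1 of them is not reported here), and the 2 largest changes per list. Genome sequence across the junctions was not used here.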

Additional observations from a re-analysis of the deposited data

How the results depend on the processing

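Counts below are higher and then lower in DIS3 KD. Of all 2427 circles limma called 2 and 11, and of the 47 circles of the 7 hosts 1 and 0. With the replicate number as a block the calls were 36 and 98 of all and 3 and 1 of the 47. The deviations of same-numbered libraries from their group means had a correlation of 0.00289. Counting error in circles with few control reads could hide a shared deviation, so whether the numbers pair libraries stays undecided. Without trend and robust moderation they were 0 and 0, and 0 of the 47. With edgeR on recovered reads they were 1 and 0, and 0 of the 47, and with DESeq2 173 and 65, and 16 and 1. With 0.5 times the pseudocount they were 1 and 0, and 0 of the 47, and with 2 times it 7 and 13, and 2 and 0. A filter at 10 reads gave 31 and 160, and 3 and 2. No filter gave 48 and 61, and 4 and 1. Median centring gave 1 and 0, and 0 of the 47. Leaving out 1 library gave 0 to 350 and 0 to 440, and 0 to 14 and 0 to 6, with 12 and 6 of the 47 without control replicate 1, 14 and 2 without control replicate 2, and 0 and 0 without either DIS3 KD library. A group left with 1 library is there assumed to vary like the other.

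Groups that did not overlap were 18 and 16 of the 47, where 16.2% and 38.4% of all 2427 circles were so. They were 11 and 8 of the 29 left with the filter at 10 reads, and 68 and 20 of all 231 with no filter. Median centring gave 23 and 8 of the 47, and leaving out 1 library 21 to 24 and 16 to 22. A group left with 1 library is set apart more easily. The shares over all circles under these alternatives are not given, so nothing is read from the counts. The 23 include TBCD chr17:82900651-82911789, read in DIS3 KD replicate 1 alone, whose empty libraries were set apart only by the centring. All 7 hosts diverged except under the filter at 10 reads, where TBCD and TMCO3 did not, and under median centring, where TBCD did not. Over all hosts 64 diverged, against 24 with the filter at 10 reads, 759 with no filter, 74 with centring and 91 to 199 without 1 library. Wholly lower linear signal was found in 2 hosts, 1 with centring, and 2 to 4 without 1 library, the 4 without DIS3 KD replicate 2. CIRCscore counts of 9 and 15 became 11 and 10 with centring. Log2 fold changes turned positive for UBA2 chr19:34431861-34467014 (0.13 with edgeR, 0.12 with DESeq2), chr19:34451981-34464131 (0.34, 0.33, and 0.17 with centring) and chr19:34451981-34467014 (0.35, 0.34, and 0.21). Of 593 values for single circles under an alternative, 500 moved by less than 1 SD between libraries, 85 moved by more and 8 changed sign. The median of all circles was -0.33, 0.10 with edgeR, 0.09 with DESeq2, 0.30 with no filter and 0.17 with centring. The cause of these changes was not tested. Control depth limits every circle with few control reads.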
